A study of Mus musculus with 16 samples.

Results

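The interferon-induced transmembrane (IFITM) family was followed through the 4 genes *Ifitm1*, *Ifitm2*, *Ifitm3* and *Ifitm6*, taken by symbol from a table of 23356 genes measured by RNA-seq. The cells were bone marrow-derived dendritic cells (BMDCs), grown for 6 days in GM-CSF and IL-4 from mice on the C57BL/6 background. The genotypes were wild type, *Tmem173*-/-, which lacks the cyclic dinucleotide sensor STING, *Irf1*-/- and *Irf3/7*-/-, the last of which lacks a pair of transcription factors. BMDCs of each genotype were left untreated or given c-di-GMP, a bacterial ligand of STING, for 18 h, at 25 µg/ml per the labels, with 2 samples for each of 8 conditions. The legends of the study name another dose, so the dose is not settled. The deletions are carried by every cell of a culture, and the labels give neither the age or sex of the mice nor how many mice a culture came from. The purpose of the series was to find which parts of the c-di-GMP response depend on STING, IRF1 and IRF3/7.

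IFITM proteins are small membrane proteins that hinder enveloped viruses at the step where viral and cellular membranes fuse. IFITM3 sits mainly in endosomes and lysosomes and is well known for restricting influenza virus, whereas IFITM1 sits largely at the cell surface. Their genes lie in one cluster and several of them are induced by type I and type II interferons, whose signals reach interferon-stimulated response elements (ISREs) and gamma-activated sequences (GAS) in promoters. IRF1, IRF3 and IRF7 bind elements related to the ISRE.

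The values were FPKM, fragment counts divided by transcript length and by the fragments mapped in all, 1 for each gene and condition with an interval from the authors. The replicates had been combined by the authors, so the interval is the error given here, and no p-value can be computed. A difference was called where it exceeded 2-fold on log2(FPKM + 0.1), the intervals were apart and either condition reached 1 FPKM. The range behind each log2 difference spans the most distant bounds. All 4 members had the status OK in every condition and were tested in every comparison.

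Facts of the cultures bear on what follows. *Tmem173* was 8.97 and 7.49 FPKM in untreated and treated *Tmem173*-/- BMDCs and 77 to 118 FPKM elsewhere. *Irf7* was 1.07 and 4.97 FPKM in *Irf3/7*-/- BMDCs, against 15.2 and 687 FPKM in wild type. *Irf3* was 7.74 FPKM in untreated but 20.2 FPKM in treated *Irf3/7*-/- BMDCs, the latter not below the 15.8 FPKM of treated wild type, and *Irf1* went from 25.9 to 116 FPKM in *Irf1*-/- BMDCs. A value over a whole gene does not separate deleted exons from the rest, so genotypes are given as labelled. All 9 dendritic cell markers, among them *Itgax*, *Cd74* and *Zbtb46*, had at least 1 FPKM in every condition. Their levels were not the same in all genotypes. In treated *Irf1*-/- against treated wild-type BMDCs *H2-Aa* was lower, at 462 against 1424 FPKM (log2 -1.62, range -2.43 to -0.82). *H2-Ab1* and *Ciita* were also called lower there, and the other markers of the list were not called. Marker genes of other cells were present too and differed between genotypes, as given beside the results. In bulk RNA, fewer cells of a type and less RNA per cell cannot be told apart.

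The members lie on chromosome 7 within 1 Mb of *Irf7*. In GRCm38 with the GENCODE M21 annotation, *Ifitm2* spans chr7:140954837-140955987 on the reverse strand, *Ifitm1* chr7:140967221-140969825 on the forward strand, *Ifitm3* chr7:141009586-141010770 and *Ifitm6* chr7:141015699-141017924, both on the reverse strand. *Irf7* follows at chr7:141262706-141266481, between 245 kb from *Ifitm6* and 307 kb from *Ifitm2*. The coding transcript of *Ifitm2* and that of *Ifitm3* have 2 exons, and those of *Ifitm1* and *Ifitm6* have 2 or 3. The transcripts of *Ifitm2* and *Ifitm3* were the most alike, with 76.5% identical bases over the aligned part, and those of *Ifitm3* and *Ifitm6* the least, with 65%.

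The promoters are printed for *Ifitm3*, which rose with c-di-GMP, for *Ifitm2*, its closest copy, which was not called, and for *Ifitm1*, which was not called either. Each runs 5′ to 3′ from 250 bases before to 50 after the RefSeq start in GRCm38, and the windows of all 4 members were found. They span chr7:141010695-141010994 for *Ifitm3* and chr7:140955912-140956211 for *Ifitm2*, both on the reverse strand, and chr7:140967826-140968125 on the forward strand for *Ifitm1*. Capitals mark matches to the ISRE core, spelled GAAA, NN and GAAA without a gap, where N is any base, and searched on both strands.
Ifitm3: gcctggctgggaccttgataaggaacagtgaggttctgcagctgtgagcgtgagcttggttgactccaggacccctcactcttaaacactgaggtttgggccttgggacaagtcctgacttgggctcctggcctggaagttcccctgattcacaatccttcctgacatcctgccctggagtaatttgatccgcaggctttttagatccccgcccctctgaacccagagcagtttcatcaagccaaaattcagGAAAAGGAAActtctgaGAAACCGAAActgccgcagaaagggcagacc
Ifitm2: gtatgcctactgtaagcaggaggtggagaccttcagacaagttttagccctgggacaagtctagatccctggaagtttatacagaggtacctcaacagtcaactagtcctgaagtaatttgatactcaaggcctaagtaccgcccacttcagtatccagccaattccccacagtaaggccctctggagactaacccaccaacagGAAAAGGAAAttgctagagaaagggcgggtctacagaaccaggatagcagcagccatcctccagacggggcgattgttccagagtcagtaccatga
Ifitm1: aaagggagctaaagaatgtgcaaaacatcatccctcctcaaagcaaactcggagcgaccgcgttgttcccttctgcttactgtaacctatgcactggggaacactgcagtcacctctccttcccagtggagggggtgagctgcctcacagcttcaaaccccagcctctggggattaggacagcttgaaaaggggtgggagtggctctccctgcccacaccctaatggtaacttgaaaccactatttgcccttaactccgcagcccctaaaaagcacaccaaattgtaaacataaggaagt
The *Ifitm3* window held 2 matches, at +3 and +20 from the start, and the *Ifitm2* window held 1, at -46. The first *Ifitm3* match and the *Ifitm2* match have the same 10 letters, GAAAAGGAAA, and the second *Ifitm3* match is GAAACCGAAA. The windows printed or searched for *Ifitm1* and *Ifitm6* held 0, but each covers a single RefSeq start. Both genes have 3 annotated transcripts, the locus of *Ifitm1* in the table begins upstream of its window, and the annotated *Ifitm6* gene reaches upstream of its own, so sequence at their other starts was not searched. A match was found in 3.44% of 32851 RefSeq promoter windows and more than 1 match in 0.225%, while 8 of 13 interferon-induced antiviral genes with a window, 61.5%, held one. A GAS match, TTCNNNGAA, stood in the *Ifitm3* window at +14, where it overlaps the second ISRE match, and in the *Ifitm6* window at -10, against 8.3% of all windows. These are matches of letters, not measured binding.

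*Ifitm3* was the most abundant member in 4 conditions and its level moved with c-di-GMP in every genotype but *Tmem173*-/-. It was 191 FPKM (interval 119 to 211) in untreated and 1583 FPKM (957 to 1735) in treated wild-type BMDCs. In *Tmem173*-/- BMDCs it was 91.8 FPKM (55.8 to 101) untreated and 81.7 FPKM (49.4 to 94.7) treated. In *Irf1*-/- BMDCs it was 50.3 FPKM (30.6 to 59.8) and 1461 FPKM (886 to 1605). *Irf3/7*-/- BMDCs had 107 FPKM (66.2 to 117) and 963 FPKM (594 to 1069.7). The 3 treated conditions with STING stood above all others, with intervals apart from every untreated condition, and did not differ from each other beyond their intervals. Below them untreated wild type stood apart from its neighbours in the order, and the other 4 conditions each overlapped the next. At its highest *Ifitm3* ranked 36 among 23245 genes, and it was 31.5-fold higher there than at its lowest, in untreated *Irf1*-/- BMDCs.

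*Ifitm2*, whose product is close to IFITM3 in sequence, varied least. Its FPKM was 141 (interval 86.5 to 155) in untreated and 187 (116 to 206) in treated wild type, 141 (85.7 to 155) and 123 (73.7 to 130.3) in *Tmem173*-/-, 101 (61.2 to 109) and 177 (111 to 198) in *Irf1*-/-, and 124 (76.5 to 135) and 217 (136 to 242) in *Irf3/7*-/- BMDCs. The highest value was 2.16-fold above the lowest, no condition was apart from the next in the order, and 5 of 28 pairs of conditions had intervals that did not overlap.

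*Ifitm1* was highest without STING, whatever the treatment. It was 73.7 FPKM (56.7 to 90.8) in untreated and 46.6 FPKM (35.6 to 57.5) in treated wild type, 157 (121 to 194) and 145 (112 to 178) in *Tmem173*-/-, 38.7 (29.3 to 48) and 36.7 (28 to 45.5) in *Irf1*-/-, and 50.4 (38.5 to 62.3) and 75.8 (58.4 to 93.1) in *Irf3/7*-/- BMDCs. Both *Tmem173*-/- conditions were apart from the other 6, which formed a chain of overlapping intervals.

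*Ifitm6* was low except without STING. It was 2.15 FPKM (0.809 to 3.23) in untreated and 3.3 FPKM (1.47 to 4.41) in treated wild type, 59.4 (33.4 to 66.1) and 46.8 (25.3 to 50.7) in *Tmem173*-/-, 1.12 (0.368 to 1.84) and 2.94 (1.18 to 3.9) in *Irf1*-/-, and 0.942 (0.294 to 1.54) and 1.42 (0.441 to 2.35) in *Irf3/7*-/- BMDCs. Both *Tmem173*-/- conditions were apart from all the others, whose intervals overlapped from one to the next in the order.

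**Figure D1:**
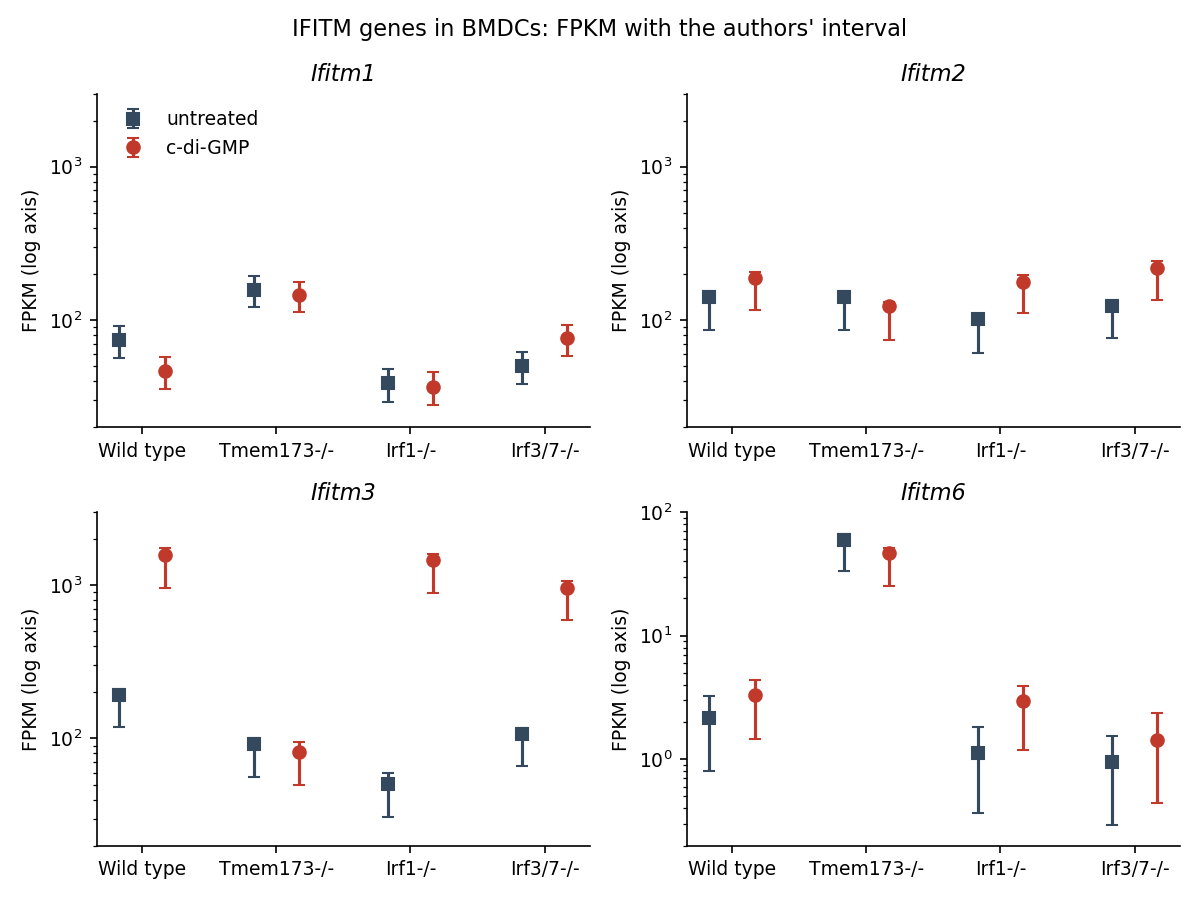
FPKM of the 4 IFITM genes on log axes, by genotype, in untreated (squares) and c-di-GMP-treated (circles) BMDCs. Points are the deposited values, 1 for each condition, and bars the authors' interval. *Ifitm3* reached 963 to 1583 FPKM in the treated conditions other than *Tmem173*-/-, *Ifitm1* and *Ifitm6* were highest in both *Tmem173*-/- conditions, and the *Ifitm2* values lay between 101 and 217 FPKM.

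The depth behind these values differed between members. The 16 bounds of *Ifitm6* were whole multiples of 0.0735 FPKM, those of *Ifitm2* of 0.0634 FPKM and those of *Ifitm3* of 0.0614 FPKM, within the rounding of the deposited digits. For *Ifitm1* no such step was found. Read as the worth of 1 fragment on a scale common to the conditions, the step puts untreated *Irf3/7*-/- BMDCs at 12.8 fragments of *Ifitm6* with bounds of 4 and 21, and untreated *Tmem173*-/- BMDCs at 808 with bounds of 455 and 899. *Ifitm3* ranged from 819.9 to 25804 fragments by the same reading. *Ifitm6* outside *Tmem173*-/- BMDCs thus rested on 12.8 to 44.9 fragments. The FPKM of *Ifitm2*, *Ifitm3* and *Ifitm6* at higher levels lay near the upper bound, for instance at 80.6% of the interval of *Ifitm3* in treated wild type. The median position was 50.1% among 4710 genes with at least 10 FPKM everywhere, and 3.35% of these genes lay above 75%.

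Reads shared with copies could also be counted differently. Of the 35-base stretches of the *Ifitm3* transcript, 35 bases being the length of a read, 9.16% were shared with the other 3 members, and for *Ifitm2* the share was 5.64%, for *Ifitm1* 3.54% and for *Ifitm6* 0. Counting all annotated genes, 53.8% of *Ifitm2* stretches were shared, 37.7% with *Gm45717*, an overlapping gene on the same strand whose symbol was not found in the table. The stretches were counted singly, while the paper sequenced both ends of a fragment, so these are not shares of ambiguous fragments. The level of *Ifitm2* is open to shared reads to a degree not known, and *Ifitm6* is the member least open to reads from a copy. The other 10 genes of the wider IFITM and dispanin family in the table were below 1 FPKM in all 8 conditions, *Ifitm5* reaching 0.336 FPKM and *Ifitm10* 0.238 FPKM, both in *Irf3/7*-/- BMDCs, and *Ifitm7* 0.126 FPKM.

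As FPKM is per length, the levels of the members can be added. Their sum was 408 FPKM in untreated and 1820.2 FPKM in treated wild-type BMDCs, 449.9 and 396 FPKM in *Tmem173*-/-, 191 and 1678 FPKM in *Irf1*-/-, and 283 and 1258 FPKM in *Irf3/7*-/- BMDCs. *Ifitm3* made up 46.9% of the sum in untreated and 87% in treated wild type. The share went from 26.3% to 87.1% with treatment of *Irf1*-/- BMDCs and from 38% to 76.6% with treatment of *Irf3/7*-/- BMDCs. In *Tmem173*-/- BMDCs it held 20.4% and 20.6%, *Ifitm1* held 35% and 36.6%, and *Ifitm6* held 13.2% and 11.8%, against at most 0.589% for *Ifitm6* elsewhere.

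The first comparison asked what c-di-GMP changed in each genotype. *Ifitm3* was the member that rose, in wild-type, *Irf1*-/- and *Irf3/7*-/- BMDCs. In wild type it rose 8.28-fold, by 3.05 on the log2 scale (range 2.18 to 3.87), which placed it 180th of 11201 genes tested. In *Irf1*-/- BMDCs it rose 29-fold (log2 4.86, range 3.89 to 5.71) and ranked 70th of 11164, and in *Irf3/7*-/- BMDCs 8.96-fold (log2 3.16, range 2.34 to 4.01), ranking 144th of 11283. In each of these genotypes 1 of 4 members was called higher, where 10.5% of all genes tested were called higher in wild type, 9.67% in *Irf1*-/- and 10.2% in *Irf3/7*-/- BMDCs, and 20.5%, 17.5% and 17.9% in either direction. In *Tmem173*-/- BMDCs 0 of 4 members were called, where 0.0552% of all genes tested were. There the log2 differences were -0.12 for *Ifitm1*, -0.20 for *Ifitm2*, -0.17 (range -1.03 to 0.76) for *Ifitm3* and -0.34 for *Ifitm6*.

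*Ifitm2* stayed under the threshold in every genotype. Its log2 difference was 0.41 (range -0.42 to 1.25) in wild type, 0.81 (0.03 to 1.69) in *Irf1*-/- and 0.81 (0.01 to 1.66) in *Irf3/7*-/- BMDCs. In both knockouts the intervals were just apart, and the difference was 1.76-fold and 1.75-fold. *Ifitm1* differed by -0.66 (-1.35 to 0.02) in wild type, -0.08 (-0.78 to 0.63) in *Irf1*-/- and 0.59 (-0.09 to 1.27) in *Irf3/7*-/- BMDCs, with overlapping intervals each time. *Ifitm6* differed by 0.60 (-1.09 to 2.31), 1.31 (-0.60 to 3.10) and 0.54 (-1.60 to 2.64), and a 2.61-fold difference in *Irf1*-/- BMDCs lay within the intervals.

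The change in *Ifitm3* was set against that in wild type. It differed by -3.22 log2 units (range -4.90 to -1.42) in *Tmem173*-/- BMDCs. In *Irf1*-/- BMDCs it was larger by 1.81 log2 units (range 0.02 to 3.53), where the untreated level was 3.8-fold below wild type and the treated level was not called. In *Irf3/7*-/- BMDCs it differed by 0.11 (range -1.53 to 1.83). For the other members the range of this difference included 0 in every knockout, as for *Ifitm1* in *Irf3/7*-/- BMDCs at 1.25 (-0.11 to 2.62).

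**Figure D2:**
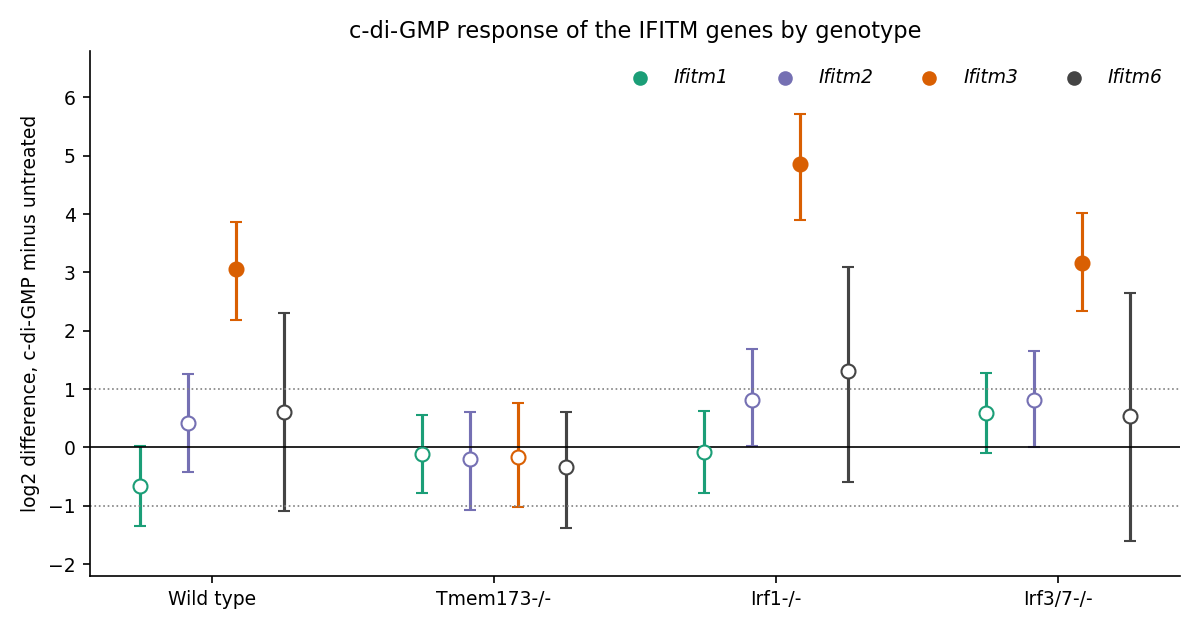
Log2 difference of each IFITM gene between c-di-GMP-treated and untreated BMDCs, by genotype. Filled points were called changed and open points were not, bars span the most distant bounds of the authors' intervals, and dotted lines mark 2-fold. *Ifitm3* stood at 3.05, 4.86 and 3.16 in wild-type, *Irf1*-/- and *Irf3/7*-/- BMDCs and at -0.17 in *Tmem173*-/- BMDCs.

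*Ifitm3* moved with the other interferon-induced antiviral genes. Of a list of 18 such genes, 18 rose in wild type, 18 in *Irf1*-/- and 17 in *Irf3/7*-/- BMDCs, with median log2 differences of 3.20, 5.13 and 4.35, where the median over all genes tested was 0.00 each time. In *Tmem173*-/- BMDCs 0 of 14 tested were called, with a median of 0.15 against -0.02 over all genes. *Rsad2*, which encodes viperin, went from 3.99 to 1245 FPKM in wild type, the largest rise of the list, and *Isg15*, a ubiquitin-like modifier, reached the highest level at 2262 FPKM. The rise of *Ifitm3* was larger than that of 7 of the 18 in wild type, 7 of 18 in *Irf1*-/- and 6 of 18 in *Irf3/7*-/- BMDCs. Its nearest neighbour in wild type was *Bst2*, which encodes the virus-tethering protein tetherin and went from 155 to 1253 FPKM (log2 3.01, range 2.12 to 3.81). In level, *Isg15* was the 1 gene of the list above *Ifitm3* in the treated conditions of these 3 genotypes. *Ifitm2*, by contrast, had a smaller log2 difference than all 18 genes in wild type and in *Irf1*-/- BMDCs and than 17 of 18 in *Irf3/7*-/- BMDCs.

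**Figure D3:**
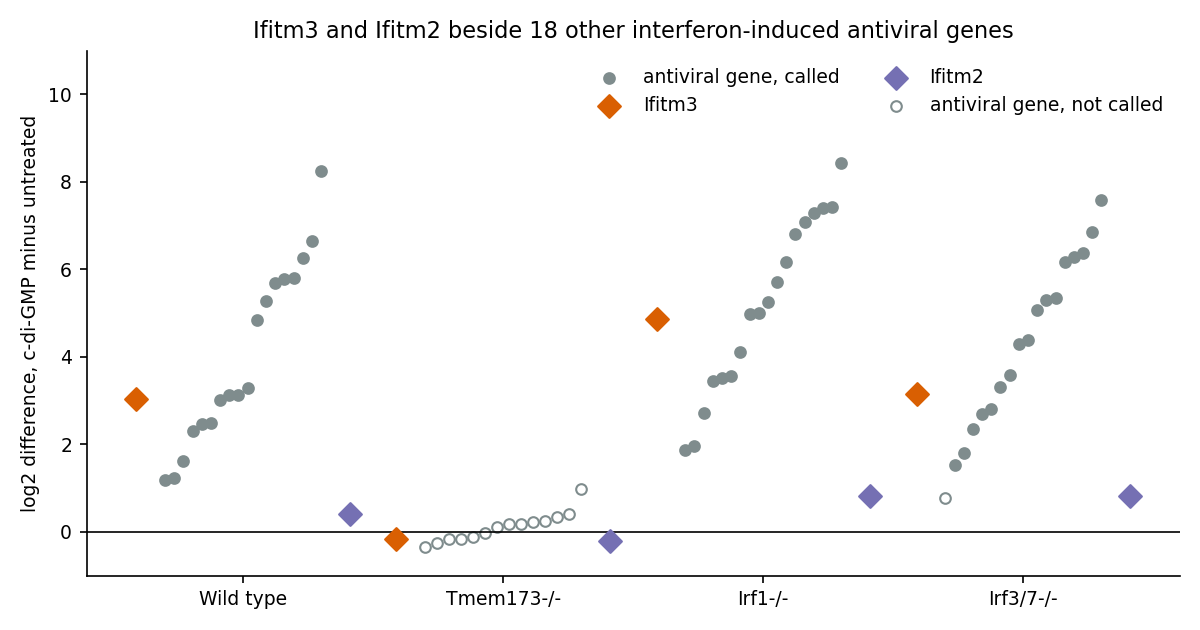
Log2 difference between c-di-GMP-treated and untreated BMDCs for the antiviral genes tested (grey circles, filled where called), sorted within each genotype, with *Ifitm3* (orange) to their left and *Ifitm2* (purple) to their right. *Ifitm3* lay within the range of the list in every genotype, and *Ifitm2* lay below it in wild type and *Irf1*-/- BMDCs.

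Genes upstream of the IFITM genes were read from fixed lists. Of 12 genes of interferon receptors and their signalling, 3 rose in wild type, 4 in *Irf1*-/-, 2 in *Irf3/7*-/- and 0 in *Tmem173*-/- BMDCs, and 0 fell. Of all genes tested 10.5%, 9.67% and 10.2% were called higher in the first 3 genotypes and 0.0552% were called in *Tmem173*-/- BMDCs, so the counts in *Irf3/7*-/- and *Tmem173*-/- BMDCs lie near the share for all genes. *Stat2*, a subunit of the factor that binds ISREs, went from 42.4 to 155 FPKM in wild type (log2 1.87, range 1.16 to 2.58). *Usp18*, an interferon-induced inhibitor of the interferon receptor, went from 42.3 to 404 FPKM (log2 3.25, range 2.56 to 3.94). Among interferon genes, *Ifnb1* was 0 untreated and 2.93 FPKM treated in wild type, 3.53 FPKM in treated *Irf1*-/- and 22.6 FPKM in treated *Irf3/7*-/- BMDCs, and 0.0474 FPKM in treated *Tmem173*-/- BMDCs. *Ifna4*, another type I interferon, went the other way in *Irf3/7*-/- BMDCs. When treated it was 3.53 FPKM in wild type, 9.37 FPKM in *Irf1*-/-, 0.0484 FPKM in *Irf3/7*-/- and 0 in *Tmem173*-/- BMDCs. *Ifng*, the type II interferon, went from 34.6 to 299 FPKM in wild type, from 1.26 to 25.5 FPKM in *Irf1*-/- and from 44 to 1155 FPKM in *Irf3/7*-/- BMDCs, and was listed at 0 in both *Tmem173*-/- conditions.

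Marker genes of T and NK cells, which make IFN-γ, followed the same order of genotypes. The 10 genes, among them *Cd3e*, *Gzma* and *Prf1*, summed to 774 and 741 FPKM in untreated and treated wild type, 829.7 and 2416 FPKM in *Irf3/7*-/-, 24.1 and 38.8 FPKM in *Irf1*-/-, and 3.21 and 2.81 FPKM in *Tmem173*-/- BMDCs. In *Tmem173*-/- BMDCs 9 of 10 were under 1 FPKM and *Gzma* was listed at 0. With c-di-GMP, 1 of the 5 genes tested in *Irf1*-/- BMDCs was higher and 0 were lower. Of all genes tested there, 9.67% were called higher, so the count does not set the list apart. The listed gene called was *Lck*, a T cell kinase, which went from 1.26 to 6.16 FPKM (log2 2.20, range 1.18 to 3.31). The part of these cells in the level of *Ifitm3* was not tested.

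The next comparisons set each knockout against wild type under the same treatment, and all of them share the wild-type conditions. In treated *Tmem173*-/- BMDCs *Ifitm3* was 19.4-fold lower than in treated wild type (log2 -4.28, range -5.13 to -3.34). *Ifitm6* was 14.2-fold higher (log2 3.79, range 2.49 to 5.02) and *Ifitm1* 3.12-fold higher (log2 1.64, range 0.97 to 2.32). *Ifitm2* was not called (log2 -0.60, range -1.48 to 0.17). Thus 3 of 4 members were called, 2 higher and 1 lower, where 26.3% of all genes tested were called, 12.9% higher and 13.5% lower.

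Without c-di-GMP the members of *Tmem173*-/- BMDCs differed from wild type in the same directions. *Ifitm6* was 27.6-fold higher (log2 4.72, range 3.33 to 6.19), 34th among the rises of 11101 genes tested. *Ifitm1* was 2.14-fold higher (log2 1.09, range 0.42 to 1.77), and *Ifitm3* 2.08-fold lower (log2 -1.06, range -1.92 to -0.23). *Ifitm2* differed by 0.00 (range -0.86 to 0.84). Again 3 of 4 members were called, where 11% of all genes tested were, 5.04% higher and 5.95% lower. Of the antiviral list, 14 of 18 genes were lower, with a median log2 difference of -2.30 against 0.01 over all genes.

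Markers of neutrophils were higher in the same *Tmem173*-/- conditions. Of 8 such genes in the table, 7 were higher in untreated and 7 in treated *Tmem173*-/- BMDCs than in wild type, with median log2 differences of 2.81 and 2.86 against 0.01 and 0.02 over all genes tested. *S100a8*, which encodes a subunit of calprotectin, was 2531 FPKM in untreated wild type and 10351 FPKM in untreated *Tmem173*-/- BMDCs, and *Camp*, which encodes the granule peptide cathelicidin, was 18.8 and 339 FPKM. The deposited intervals of *S100a8* lay below its FPKM, at 1204 to 2169 in untreated wild type. *Elane*, neutrophil elastase, was not called, at 2.45 and 40.8 FPKM with wide intervals. The summed level of the list was 20032 and 14548 FPKM in untreated and treated *Tmem173*-/- BMDCs and 1414 to 4019.6 FPKM in the other 6 conditions. *S100a8* and *S100a9* made up most of this sum in every condition. The sum was lower in treated than in untreated wild type, 1907 against 4019.6 FPKM. *S100a8* (1105 against 2531 FPKM) and *S100a9* (643 against 1350.4 FPKM) were called lower there, and the other listed genes were not called. *Ifitm6* was 3.3 against 2.15 FPKM in that comparison and was not called. Other markers differed in the same comparisons. Of all genes tested there, 5.04% were called higher and 5.95% lower untreated, and 12.9% and 13.5% treated. Of 9 macrophage and monocyte genes, 3 were higher and 0 lower in untreated *Tmem173*-/- BMDCs, and 5 were higher and 2 lower in treated ones, with *Csf1r*, the receptor for M-CSF, at 204 against 48.6 FPKM and *Ly6c2*, a monocyte surface protein, at 156 against 727 FPKM. Of 5 B cell genes, 4 were tested and 3 were higher both untreated and treated. The part of these cells in the levels of *Ifitm6* and *Ifitm1* was not tested.

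**Figure D4:**
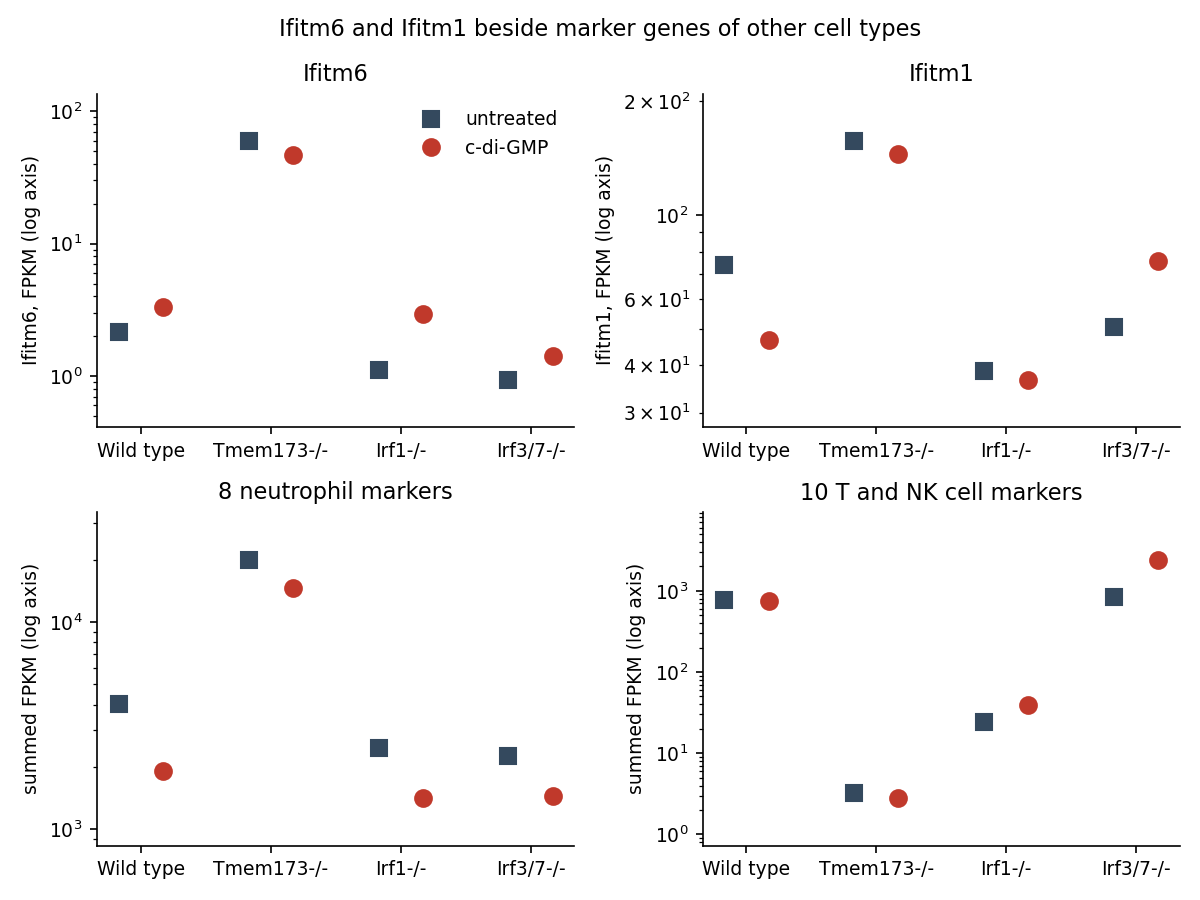
FPKM of *Ifitm6* and *Ifitm1* and the summed FPKM of 8 neutrophil and 10 T and NK cell marker genes, on log axes, by genotype, untreated (squares) and treated with c-di-GMP (circles). *Ifitm6*, *Ifitm1* and the neutrophil sum were highest in both *Tmem173*-/- conditions, where the T and NK cell sum was lowest at 3.21 and 2.81 FPKM. Most of the neutrophil sum comes from *S100a8* and *S100a9*.

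In *Irf1*-/- BMDCs the difference lay in the untreated cells. Untreated, *Ifitm3* was 3.8-fold lower than in wild type (log2 -1.92, range -2.78 to -0.99), 182nd among the falls of 11017 genes tested, and was the 1 of 4 members called, where 4.78% of all genes were, 3.52% as lower. *Ifitm1* was 1.91-fold lower with intervals apart (log2 -0.93, range -1.63 to -0.24), under the threshold. *Ifitm2* differed by -0.48 and *Ifitm6* by -0.88, with overlapping intervals. In the same comparison 11 of 18 antiviral genes were lower and 1 higher, and 9 of the 9 T and NK cell markers tested were lower. After c-di-GMP 0 of 4 members were called, where 7.56% of all genes were. *Ifitm3* then differed by -0.12 (range -0.97 to 0.75), and *Ifitm1* by -0.34, *Ifitm2* by -0.08 and *Ifitm6* by -0.16.

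In *Irf3/7*-/- BMDCs 0 of 4 members were called against wild type, untreated or treated, where 2.04% and 7.3% of all genes tested were called. Treated, *Ifitm3* was 1.64-fold lower (log2 -0.72, range -1.55 to 0.16) and *Ifitm6* 2.33-fold lower (log2 -1.16, range -3.06 to 0.64), both with overlapping intervals. *Ifitm1* was 1.63-fold higher (log2 0.70, range 0.02 to 1.38) and *Ifitm2* differed by 0.22 (-0.60 to 1.06). Untreated, *Ifitm3* was 1.78-fold lower with intervals just apart (log2 -0.83, range -1.67 to -0.02), and *Ifitm1*, *Ifitm2* and *Ifitm6* differed by -0.55, -0.18 and -1.11. The antiviral list had 9 of 18 genes lower and 1 higher in the untreated cells, and 3 lower and 0 higher in the treated cells, among them *Oasl1*, an oligoadenylate synthetase-like protein, at 237 against 911 FPKM.

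The treated knockouts were also compared directly. *Ifitm1* was 2.06-fold higher in treated *Irf3/7*-/- than in treated *Irf1*-/- BMDCs (log2 1.04, range 0.36 to 1.73), 1 of 4 members called where 9.84% of all genes were, 6.62% as higher. *Ifitm3* was 963 against 1461 FPKM (log2 -0.60, range -1.43 to 0.27), *Ifitm2* differed by 0.30, and *Ifitm6* was 1.42 against 2.94 FPKM, none of them called. The T and NK cell markers differed widely here, with 8 genes higher in *Irf3/7*-/- BMDCs and a median log2 difference of 5.40 against -0.04 over all genes, and their part in the level of *Ifitm1* was not tested.

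As the members lie near *Irf7*, the other neighbours of *Irf7* were examined in *Irf3/7*-/- BMDCs. Of 80 other genes within 1 Mb of *Irf7*, 32 were tested in treated BMDCs, and 1 was higher and 0 lower than in wild type. The gene was *Lrdd*, which encodes the death domain protein PIDD, at 5.03 against 2.47 FPKM (log2 range 0.26 to 1.77), just over the threshold. The median log2 difference of these genes was -0.13, against -0.02 over all genes tested, of which 7.3% were called. In untreated BMDCs 0 of 30 tested genes were called, where 2.04% of all genes were, and the median was 0.06 against -0.01. These counts do not set the window apart. The members, not called there, differed from treated wild type as follows, from the nearest to *Irf7* to the farthest. *Ifitm6* differed by -1.16 (range -3.06 to 0.64), *Ifitm3* by -0.72, *Ifitm1* by 0.70 and *Ifitm2* by 0.22.

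**Figure D5:**
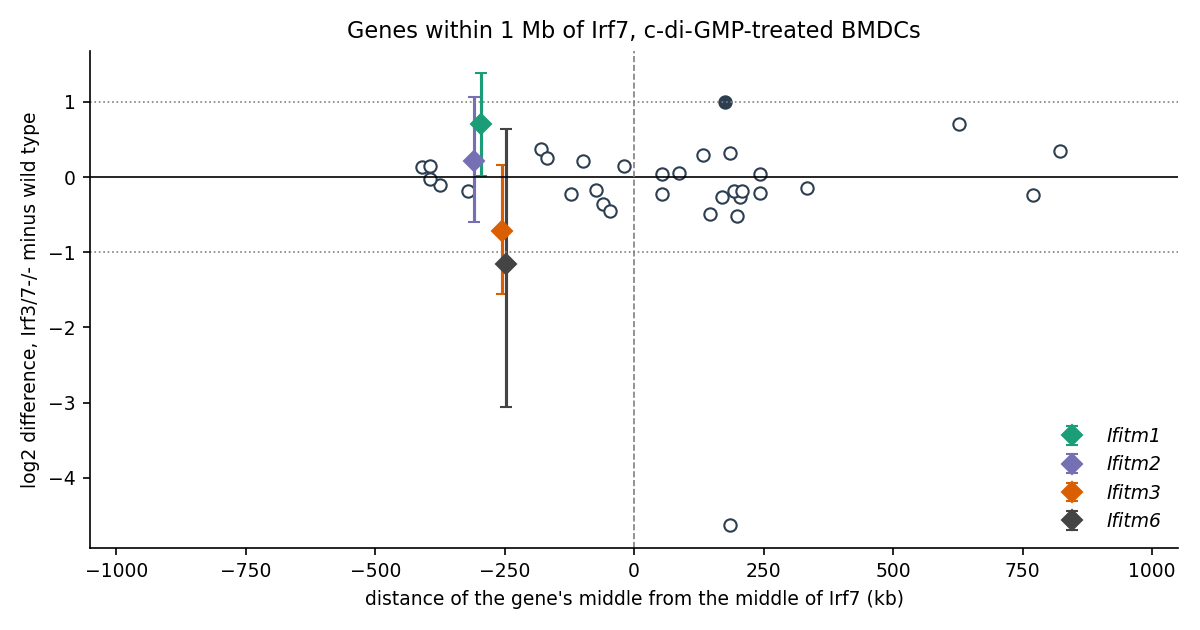
Log2 difference between treated *Irf3/7*-/- and treated wild-type BMDCs for the genes tested within 1 Mb of *Irf7*, by distance from *Irf7* in kb. Coloured diamonds are the IFITM genes with their ranges, circles other genes, the filled one called (*Lrdd*), and dotted lines mark 2-fold. The lowest circle is *Snora52*, a small nucleolar RNA gene picked out after its values were seen, listed at 0 against 2.38 FPKM and not called.

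Genes known to act on IFITM proteins were read from a list of 9. With c-di-GMP 1 was called in wild type and 0 in each knockout, where 20.5% of all genes tested were called in wild type, 17.5% in *Irf1*-/-, 17.9% in *Irf3/7*-/- and 0.0552% in *Tmem173*-/- BMDCs, so the counts do not set the list apart. The gene was *Nedd4*, a ubiquitin ligase that drives the turnover of IFITM3, which fell from 37.7 to 16.8 FPKM in wild type (log2 -1.16, range -1.83 to -0.49). *Nedd4* was also 16.8 FPKM in untreated *Tmem173*-/- BMDCs, lower than in untreated wild type. In treated *Irf1*-/- BMDCs *Nedd4* was higher than in treated wild type, at 49 against 16.8 FPKM (log2 1.54, range 0.87 to 2.21). *Zdhhc20*, which attaches palmitate to IFITM3, was 9.9 to 17.2 FPKM over the 8 conditions, *Setd7*, a methyltransferase acting on it, 11.9 to 17.6 FPKM, *Zmpste24*, a protease partner, 16.5 to 32.5 FPKM, and *Vapa*, a binding partner, 93.2 to 105 FPKM. *Cd81*, a tetraspanin found with IFITM proteins at the membrane, was 104 FPKM in untreated *Tmem173*-/- against 32.7 FPKM in wild-type BMDCs (log2 1.66, range 0.84 to 2.50) and 97.3 against 21.4 FPKM after c-di-GMP. It was also called higher than in treated wild type in treated *Irf1*-/- BMDCs, at 45.4 FPKM, and in treated *Irf3/7*-/- BMDCs, at 46.3 FPKM.

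The members differed in the genes they resembled over the 8 conditions. The correlations were computed on the log2 scale among 7382 genes with at least 10 FPKM in one condition, and the points share genotypes, treatment and cell composition. The genes most like *Ifitm3* were *Phf11b* (Pearson r = 0.997), *Siglec1*, which encodes the sialic acid receptor CD169 (0.994), and *Ifi204*, a p200 family DNA sensor (0.994). *Ifitm2* was most like *Cd82* (0.977), a tetraspanin, *Clec2d* (0.962) and *Dnajc7* (0.960). *Ifitm1* was most like *4632428N05Rik* (0.978), *Tpd52* (0.970) and *Sc5d* (0.969), and *Ifitm6* was most like *Pot1b* (0.996), *Sc4mol* (0.988) and *Tnfsf13* (0.986). Between the members, r was 0.916 for *Ifitm2* with *Ifitm3* and 0.838 for *Ifitm1* with *Ifitm6*, and between -0.394 and -0.073 for the other pairs. Many other genes were closer to each. *Ifitm3* placed 98th among the genes most like *Ifitm2*, and *Ifitm2* 594th among those most like *Ifitm3*. *Ifitm6* placed 204th for *Ifitm1*, and *Ifitm1* 227th for *Ifitm6*. The pair of highest r, *Ifitm2* and *Ifitm3*, changed by unequal amounts, 2.16-fold and 31.5-fold between the lowest and highest condition.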

How the data were processed

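Expression was measured by RNA-seq of stranded mRNA libraries from 16 BMDC samples, 2 for each of 8 conditions. The authors ran Cuffdiff (version 1.06 per the submitters' processing notes) on both samples of a condition together and deposited 1 FPKM, an interval and a status for each gene and condition. The sources used here name no aligner, annotation or strand setting for that run. Per the labels the build was mm9, but the loci in the table match GRCm38 positions of the members and of *Irf7*, which are printed. The table has 1 further set of 4 columns for a knockout without a sample here, which was not used.

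Genes with status OK and at least 1 FPKM in one condition were tested, on log2(FPKM + 0.1), on the whole table. Since replicates were combined, no replicate spread, p-value or depth per sample could be computed, and the median half-width of the interval was 25.2% to 25.7% of the FPKM. The code that makes the calls was tested on simulated data, which gives no error rate for these samples. The number of genes at 1 FPKM or more ranged from 10733 to 10970 over the conditions. Members were taken by symbol, and genes named beside them are the targeted genes, the IFITM paralogues, genes acting on IFITM proteins, and from each fixed list the largest rise, the largest fall and the highest level, with the 3 most correlated genes of each member and the genes called near *Irf7*. Neutrophil, T and NK cell, signalling and other examples beyond that rule (*Bst2*, *Elane*, *Gzma*, *Snora52*, *Cd3e*, *Lck*, *Ly6c2*, *Csf1r*, *Ifnb1*, *S100a9*, *H2-Ab1*, *Ciita*, *Zbtb46*, *Itgax*, *Cd74*, *Prf1*, *Stat2*, *Oasl1*) were named after their values were seen. The members and lists were chosen with earlier results of these data known. *Ly6g* of the neutrophil list was not found in the table. The list of basophil and mast cell markers is given under other observations. Promoter windows came from RefSeq (GRCm38.p6) and transcripts from GENCODE M21. Alternatives were other pseudocounts, minimums, fold thresholds, scaling, the fold alone and summed members. Python 3.11.15, numpy 2.4.6, pandas 2.3.3, biopython 1.88 and matplotlib 3.10.9 were used.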

Additional observations from a re-analysis of the deposited data

How the results depend on the processing

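No paired analysis was possible because the table holds 1 value for each condition, with replicates combined. Leaving out a replicate and a replicate block were not run for the same reason. Of 388 member values under alternatives, 374 kept their call or stayed without one, 5 lost a call and 9 gained one. With a call in either setting, 0 changed sign. Changes of sign without a call were not counted. With a threshold of 1.5-fold in place of 2-fold, the members called were 2 in the *Irf1*-/- response and 2 in the *Irf3/7*-/- response, with *Ifitm2* added in each, 1 in treated *Irf3/7*-/- against wild type (*Ifitm1*), 2 in untreated *Irf1*-/- against wild type (*Ifitm1* added) and 1 in untreated *Irf3/7*-/- against wild type (*Ifitm3*). With 4-fold they were 1 in untreated *Tmem173*-/- against wild type, without *Ifitm1* and *Ifitm3*, 0 in untreated *Irf1*-/- against wild type and 0 between the treated knockouts, and *Ifitm1* was also lost in treated *Tmem173*-/- BMDCs. With the fold alone *Ifitm6* was added, giving 2 in the *Irf1*-/- response, 1 in treated and 1 in untreated *Irf3/7*-/- against wild type, and 2 between the treated knockouts. Within 5 Mb of *Irf7*, members included, 6 of 78 genes tested in treated *Irf3/7*-/- BMDCs were called (5 higher, 1 lower). That is 7.69%, against 7.3% of all genes tested. The other pseudocounts, minimums and median centring, which shifted a condition by at most 0.03 log2 units, changed no call of a member that was still tested, nor did the midpoint of the interval in place of the FPKM, an alternative chosen after seeing the data. With a minimum of 5 FPKM *Ifitm6* was not tested outside comparisons with *Tmem173*-/- BMDCs. For the summed level of the members, 22 of 22 values under alternatives were counted as unchanged. That count does not set the sum against the single members. In untreated *Tmem173*-/- BMDCs the sum was 449.9 FPKM, against 408 FPKM in untreated wild type. *Ifitm1* and *Ifitm6* were called higher in that comparison and *Ifitm3* lower. Counts over all genes moved by more than 1.5 times with a threshold of 4-fold in all 11 comparisons. The responses to c-di-GMP went from 2291 to 592 in wild type, 1952 to 589 in *Irf1*-/-, 2015 to 500 in *Irf3/7*-/- and 6 to 0 in *Tmem173*-/- BMDCs. Against wild type, treated *Tmem173*-/-, *Irf1*-/- and *Irf3/7*-/- went from 2980, 838 and 818 to 1174, 232 and 207, the untreated ones from 1221, 527 and 224 to 422, 176 and 36, and the treated knockouts from 1106 to 381. With a minimum of 5 FPKM the same counts went to 538 and 460 for treated *Irf1*-/- and *Irf3/7*-/-, 800, 323 and 112 for the untreated ones and 723 between the treated knockouts. A pseudocount of 1 FPKM gave 536 for treated and 118 for untreated *Irf3/7*-/-, and 1.5-fold gave 350 for the latter. The *Tmem173*-/- response had 83 with the fold alone, 56 at 1.5-fold, 10 without a minimum, and 11 and 1 with pseudocounts of 0.01 and 1 FPKM. Depth limited *Ifitm6* outside *Tmem173*-/- BMDCs.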

Other observations

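Of 7 basophil and mast cell genes, 6 were higher in untreated and 7 in treated *Irf3/7*-/- than in wild-type BMDCs, with summed levels of 178 and 269 FPKM against 76.6 and 88.4 FPKM. Of all genes tested in these comparisons, 2.04% and 7.3% were called in either direction.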
